A study of Mus musculus with 3 samples.

Results

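The cells described here are the non-dividing macrophages of the fetal mouse lung, 646 cells among the 9557 barcodes that passed the cell filter in 3 single-cell RNA libraries. A barcode passed with at least 1000 UMIs (unique molecular identifiers, 1 per captured transcript), at least 500 genes and at most 10% of UMIs from mitochondrial genes. Macrophages were the passing barcodes with at least 20 UMIs summed over the complement genes C1qa, C1qb and C1qc and at most 5 UMIs of Epcam, the epithelial adhesion molecule. Non-dividing cells, the members described below, were thus chosen by measured counts and had fewer than 3 UMIs summed over Mki67 and Top2a, which dividing cells express. All lungs came from C57/B6 embryos of stage E14.5, and the tissue of 2 pregnant females entered the preparation. Dissociated cells were stained with Epcam-APC and Icam1-PE antibodies, sorted, and loaded for the Chromium Single Cell 3' v3 assay. Replicates 1 and 2 of the Epcam+ Icam+ sort and a single Epcam+ library were made. No group differed in genotype or treatment. Whether separate embryos went into each library is not stated, so the p-values below reflect spread among 3 libraries that may be technical in origin.

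Macrophages enter the embryonic lung from the yolk sac and later from fetal liver monocytes, and they clear dying cells and debris while the airway tree branches. They depend on the receptor Csf1r, their identity is set by transcription factors such as PU.1 (the product of Spi1), and they secrete the 3 chains of C1q, the recognition unit of the classical complement pathway. Tissue macrophages of many organs divide into cells that carry Lyve1, Folr2 and Timd4 and cells that carry Ccr2, the receptor for the monocyte attractant Ccl2.

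The non-dividing macrophages numbered 309 in Epcam+ Icam+ replicate 1, 306 in replicate 2 and 31 in the Epcam+ library. These were 9.09% (exact binomial 95% interval 8.14 to 10.1) of 3400 passing barcodes, 9.66% (8.66 to 10.7) of 3167 and 1.04% (0.706 to 1.47) of 2990. The sort gates set which cells were loaded, so these shares describe the sorted suspensions and not the lung. Among macrophages, the non-dividing cells made up 70.5% (66.0 to 74.8) of 438, 71.7% (67.1 to 75.9) of 427 and 64.6% (49.5 to 77.8) of 48, and these 3 intervals overlap. Intervals here and below cover counting error only.

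The members were sequenced to a similar depth in all libraries, with a median of 20973, 21450 and 23452 UMIs and 3916, 3924 and 4298 genes per cell. In sum they held 6387143, 6545514 and 691462 UMIs, so 3 UMIs, taken as the floor of detection, corresponded to 0.470, 0.458 and 4.34 CPM (counts scaled to a common total of 1e6 UMIs). A gene absent from the 31 Epcam+ cells is therefore much less well bounded than one absent from the others. Epithelium, the reference used below, was the 1904, 1696 and 2358 passing barcodes with at least 10 Epcam UMIs and fewer than 10 C1q UMIs, with medians of 22027, 22508 and 29005 UMIs. Replicates 1 and 2 shared 3 barcodes, replicate 2 and the Epcam+ library 1, and no shared barcode was a member.

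Few members lay near the C1q and Epcam thresholds, and more lay near that on proliferation genes. Their median C1q sum was 146, 149 and 180 UMIs against 0 in epithelium. Between 20 and 29 C1q UMIs were 12 members, and 31 barcodes that met the other limits fell outside with 10 to 19. Epcam stood at 0 UMIs in 446 members and at exactly 5 in 16, while 9 barcodes fell outside with 6 and 169 with any count above 5. Mki67 and Top2a together gave 0 UMIs in 381 members, 1 in 160 and 2 in 105, and 48 macrophages with 3 were counted as dividing. The non-dividing set thus includes 265 cells with a trace of proliferation transcripts.

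The 5 genes that mark these cells are the 3 C1q chains, Pf4, a platelet chemokine also made by tissue macrophages, and Mrc1, the mannose receptor. The C1q genes lie side by side on the minus strand of chromosome 4 in mm10, C1qb at chr4:136880129-136886187, C1qc at chr4:136889804-136893065 and C1qa at chr4:136895917-136898803. Pf4 lies on the plus strand at chr5:90772435-90773383 and Mrc1 on the plus strand at chr2:14229392-14332057, and all 5 are annotated as protein-coding genes. RefSeq promoter windows on GRCm38.p6, which run from 250 bases before to 50 bases after a start, were at hand for 4 of the 5 genes. The windows of C1qc and Pf4 hold the letters GAGGAAGT, a sequence of the PU.1 type, on the strand opposite to the gene, and those of C1qb and Mrc1 hold them on neither strand. Of 32851 windows, 1052 (3.20%) hold these letters on either strand. The bases before the start of the 2 genes that match are shown 5′ to 3′ on the gene's strand, because they show where such a match stands beside 2 of the most abundant macrophage transcripts here; capitals mark the match as read on that strand. The C1qc stretch is chr4:136893066-136893164 (minus strand) and the Pf4 stretch is chr5:90772185-90772434 (plus strand).
C1qc: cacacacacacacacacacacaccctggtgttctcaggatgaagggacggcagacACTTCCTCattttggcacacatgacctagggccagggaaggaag
Pf4: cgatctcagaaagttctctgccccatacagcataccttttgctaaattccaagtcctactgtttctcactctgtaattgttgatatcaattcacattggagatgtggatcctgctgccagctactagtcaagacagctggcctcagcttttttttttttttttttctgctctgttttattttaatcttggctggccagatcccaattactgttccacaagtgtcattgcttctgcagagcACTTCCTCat
The match begins 10 bases before the start of Pf4 and 44 bases before the outer end of the C1qc gene in GENCODE, whose RefSeq start lies 151 bases further in. A match of letters is a description of sequence and no evidence of binding. Spi1 itself stood at 422, 409 and 550 CPM in the members.

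Levels below are summed UMIs of a gene over the cells of a library as CPM of all summed UMIs of those cells, in the order replicate 1, replicate 2 and Epcam+ library. The assay counts transcript ends, so levels can be set side by side across genes without a correction for length. C1qa, C1qb and C1qc chose the members and Epcam separated them from epithelium, so the contrast with epithelium is described and not tested. C1qb was the highest of the 3 chains at 3064, 2975 and 3228 CPM, while C1qa stood at 2072, 2107 and 2177 CPM and C1qc at 1836, 1773 and 2574 CPM, C1qc above C1qa in the Epcam+ library and below it in the others. Pf4 stood at 2219, 1965 and 2959 CPM against 1.70, 2.12 and 3.68 CPM in epithelium, and Mrc1 at 692, 633 and 315 CPM against 0.588, 0.381 and 0.520 CPM. All 5 markers were thus present in every library far above epithelium, as the label of the cells asks, and Mrc1 was the one that stood lowest in the Epcam+ library.

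**Figure D1:**
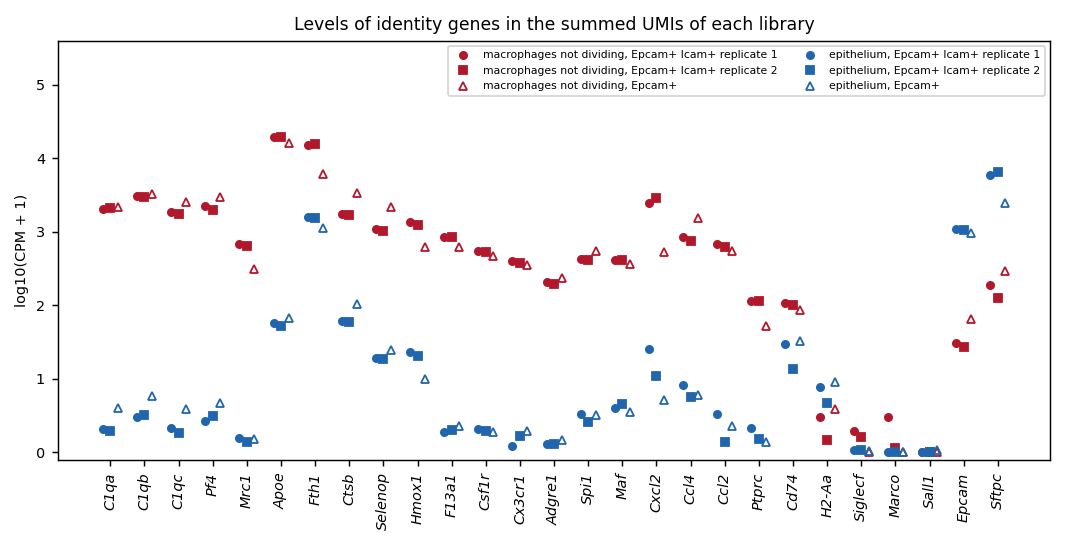
Levels of 27 genes on a log10(CPM + 1) axis in the non-dividing macrophages (red) and the epithelium (blue), 1 symbol per library, with the open triangle for the Epcam+ library. Macrophage genes such as C1qb, Apoe, Pf4 and Csf1r are separated from epithelium in every library, whereas Siglecf, Marco and H2-Aa lie at the bottom of the axis in both cell classes.

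Counting genes with a log2 ratio to epithelium of at least 1 in each of the 3 libraries, after adding 5 CPM, gave 1159 higher (11.3% of 10290 measured) and 1378 lower (13.4%). The 20 genes with the highest ratio in their weakest library were C1qb, C1qc, Pf4, C1qa, Apoe, Fcer1g, Tyrobp, F13a1, Ms4a6c, Dab2, Fcrls, Ccl2, Ctss, Aif1, Csf1r, Lst1, Trem2, Ms4a6b, Ccl4 and Fcgr3. They combine a secreted lipid carrier (Apoe), signalling adaptors of immune receptors (Fcer1g, Tyrobp), receptors (Csf1r, Trem2, Fcgr3), a coagulation transglutaminase (F13a1), an endocytic adaptor (Dab2), a lysosomal protease (Ctss) and chemokines (Ccl2, Ccl4). Apoe, at 19419, 19216 and 16096 CPM, was the most abundant of these 20 genes in each library.

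Macrophage receptors and surface proteins were higher than in epithelium in 24 of 24 measured genes, with a median log2 ratio of 5.14 against -0.29 over all genes. Csf1r, the receptor that sustains macrophages, stood at 552, 529 and 467 CPM. The adaptor Tyrobp stood at 2017, 2035 and 1861 CPM and its partner Trem2, a lipid-sensing receptor, at 523, 534 and 440 CPM. Adgre1, which encodes the F4/80 antigen, stood at 210, 197 and 237 CPM, and the fractalkine receptor Cx3cr1 stood at 403, 379 and 349 CPM. These receptors varied less between libraries than Cd14, the co-receptor for lipopolysaccharide, which read 560, 648 and 137 CPM. At a fixed 3000 UMIs per cell, Csf1r was seen in 77.6%, 78.7% and 71.0% of members and in 0.315%, 0.236% and 0.297% of epithelial cells. The members lay far above the epithelial share, and the source of the Csf1r UMIs in epithelial cells was not tested.

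Of 16 measured transcription factors of macrophages, 13 were higher and 1, the inhibitor of DNA binding Id3, was lower. Maf (413, 409 and 360 CPM) and Mef2c (313, 318 and 301 CPM) were even across libraries. Zeb2, a repressor needed for macrophage identity, read 466, 460 and 120 CPM. Maf and Mef2c thus stood at nearly the same level in the Epcam+ library, where Zeb2 was lower.

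Complement genes were higher in 8 of 9 measured. Beyond C1q, the members carried the anaphylatoxin receptors C3ar1 (356, 345 and 362 CPM) and C5ar1 (166, 152 and 325 CPM) and properdin (Cfp; 33.7, 41.4 and 76.6 CPM), the positive regulator of the alternative pathway. The next components of the cascade stood far lower. C3 stood at 6.26, 7.49 and 0 CPM and C4b at 0.313, 0.153 and 0 CPM, where only C4b lay below the floor of detection in both Epcam+ Icam+ libraries.

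Genes of lysosomes and cathepsins were higher in 18 of 21 (median log2 ratio 3.02), and efferocytosis and scavenger receptors in 10 of 18, with 2 lower. The protease Ctsb stood at 1776, 1700 and 3394 CPM and the asparaginyl endopeptidase Lgmn at 972, 900 and 1816 CPM. Both were highest in the Epcam+ library. Stab1, a scavenger receptor, stood at 309, 307 and 279 CPM and the phosphatidylserine receptor Mertk at 39.1, 38.4 and 21.7 CPM. Timd4, another phosphatidylserine receptor and a marker of long-lived resident macrophages in many adult tissues, reached only 2.03, 3.36 and 10.1 CPM.

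Iron and heme genes were higher in 12 of 13, and the exception was the transferrin receptor Tfrc, at 14.7, 18.8 and 17.4 CPM against 71.4, 71.5 and 41.4 CPM in epithelium. The ferritin heavy chain Fth1 stood at 15111, 15474 and 6102 CPM and the light chain Ftl1 at 13562, 13771 and 17606 CPM, in opposite order across the sorts. Epithelium showed the same opposite order, with Fth1 at 1609, 1539 and 1140 CPM and Ftl1 at 2608, 2611 and 4182 CPM. The heme-degrading enzyme Hmox1 stood at 1344, 1221 and 629 CPM, biliverdin reductase Blvrb at 533, 495 and 482 CPM, the iron exporter Slc40a1 (ferroportin) at 170, 155 and 65.1 CPM and the lysosomal metal transporter Slc11a1 at 99.7, 95.3 and 122 CPM. Genes of heme breakdown, iron storage and iron export were thus present together with little transferrin receptor. Lipid genes were higher in 8 of 16, among them the lipid droplet coat Plin2 at 626, 581 and 749 CPM and lipoprotein lipase (Lpl) at 184, 152 and 237 CPM.

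Chemokines were higher in 12 of 13, and Cxcl16 was the exception. Cxcl2, a neutrophil attractant, read 2471, 2895 and 531 CPM, and Ccl4, an attractant of several leukocyte types, 855, 756 and 1547 CPM. The 2 genes therefore stood in opposite order across the sorts. The monocyte attractants Ccl2 (672, 619 and 542 CPM), Ccl7 (257, 214 and 234 CPM) and Ccl12 (101, 92.9 and 137 CPM) and the eotaxin Ccl24 (252, 215 and 227 CPM) varied less. Cxcl2 was seen in 74.7%, 71.1% and 48.4% of members at 3000 UMIs and Ccl4 in 43.8%, 42.6% and 64.5%, against at most 1.24% of epithelial cells for either gene.

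Cytokines and growth factors were higher in 12 of 19 and lower in 3. Tgfb1 stood at 202, 216 and 278 CPM and insulin-like growth factor 1 (Igf1) at 213, 231 and 179 CPM. Among inflammatory cytokines, Il1b stood at 136, 112 and 23.1 CPM, Tnf at 45.7, 66.2 and 184 CPM, and Il6 at no more than trace levels of 2.03, 1.07 and 1.45 CPM. Matrix genes and proteases were mixed, with 8 of 14 higher and 4 lower, and the metalloprotease Mmp12 of adult lung macrophages reached only 7.20, 5.35 and 0 CPM. Immediate early genes, which dissociation can raise, were higher in 4 of 17, lower in 1 and had a median log2 ratio of 0.23. Fos read 316, 358 and 117 CPM in members and 98.9, 94.5 and 185 CPM in epithelium, so this gene did not keep 1 direction over the libraries.

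Of 17 genes known from alveolar macrophages of the born lung, 6 were measured and 3 of these were higher than in epithelium. The subunits of the receptor for granulocyte-macrophage colony-stimulating factor, Csf2ra (75.5, 79.9 and 44.8 CPM) and Csf2rb (143, 148 and 39.05 CPM), were present, and several genes of mature alveolar cells were at or near 0. Siglecf read 0.939, 0.611 and 0 CPM and Marco 2.03, 0.153 and 0 CPM, and no UMI of Chil3, Car4, Ear1 or Cidec was found in any member. Fabp5, a fatty acid carrier that alveolar macrophages share with other cells, stood at 408, 395 and 308 CPM. Class II antigen presentation was as low, with H2-Aa at 2.03, 0.458 and 2.89 CPM, H2-Ab1 at 0.939, 0.611 and 1.45 CPM and no UMI of Ciita, the class II master regulator. The class II invariant chain Cd74 was nonetheless present at 108, 99.3 and 86.8 CPM, as were H2-DMa (91.4, 98.9 and 75.2 CPM) and the class I light chain B2m (983, 923 and 2042 CPM).

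Genes best known from microglia, the brain macrophages, were higher than in epithelium in 9 of 10, and the matrix gene Sparc was lower. P2ry12, a purine receptor, stood at 47.4, 42.0 and 69.4 CPM, Gpr34 at 58.9, 47.8 and 79.5 CPM and Crybb1 at 135, 128 and 174 CPM. Tmem119 stood at a lower level of 17.1, 22.3 and 7.23 CPM, and Sall1, the transcription factor that defines microglia, had 0 UMIs in all 3 libraries. The fetal lung cells therefore carried part of this list without its defining factor.

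Markers of other cell types were low in the members, with exceptions that are given here. The summed level of 8 neutrophil markers was 2.19, 4.12 and 1.45 CPM with 5 of them at 0 in every library, and that of 9 lymphoid markers 7.20, 6.72 and 0 CPM with 6 at 0. Endothelial markers summed to 11.9, 9.47 and 5.78 CPM, mesenchymal to 4.54, 2.75 and 0 CPM and dendritic cell markers to 21.4, 18.3 and 15.9 CPM. Smooth muscle markers summed to 26.6, 39.1 and 20.2 CPM against 216, 175 and 79.97 CPM in epithelium. The 8 monocyte markers, which include Ccr2 and Plac8, summed to 225, 183 and 282 CPM against 37.7, 36.9 and 23.5 CPM in epithelium. Megakaryocyte markers other than Pf4 summed to 4.23, 4.28 and 5.78 CPM, so the high Pf4 came without the other genes of platelets. Mast cell markers summed to 62.6, 1.83 and 2.89 CPM, and a single member of replicate 1 held 361 of the 362 UMIs of Cpa3, Cma1 and Hdc there. Erythroid markers summed to 9.86, 17.3 and 63.6 CPM.

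Epithelial RNA was the main foreign signal. The epithelial marker list summed to 479, 390 and 782 CPM in members, which is 4.48%, 3.48% and 12.2% of its level in the epithelium of the same library. Epcam stood at 2.73%, 2.44% and 6.79% of its epithelial level and the surfactant gene Sftpc at 3.16%, 1.93% and 11.7%. By each of these measures the epithelial share was highest in the Epcam+ library. Free RNA was not removed from the counts, and its part in the genes described below was not tested.

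The non-dividing members differed from the 129, 121 and 17 dividing macrophages mainly in genes that stood lower. At a log2 difference of at least 1 in every library, 1 of 8943 measured genes (0.0112%) was higher in the members and 117 (1.31%) were lower, and since Mki67 and Top2a split the cells this is a description. Of the G2 and mitosis list 18 of 22 genes were lower (median -2.18), for example Cdk1 at 42.3, 35.1 and 78.1 CPM against 238, 233 and 297 CPM. Of the S phase list 5 of 20 were lower (median -0.96), and of 15 cell cycle inhibitors only Cdkn2c was, with no inhibitor higher. The members' Cdkn1a (p21) level of 234, 246 and 147 CPM lay beside 250, 276 and 203 CPM in dividing cells. The single gene higher in members was Plac8, a gene of monocytes, at 96.3, 48.0 and 211 CPM against 14.9, 13.4 and 27.5 CPM.

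Apart from Plac8 in the monocyte-derived list, no functional list had a gene past this difference, although members leaned upwards, with a median of 0.35 for receptors and 0.40 for resident macrophage genes against -0.03 over all genes. Lpl (82.2, 103 and 86.5 CPM in dividing cells) and the selenium carrier Selenop (618, 717 and 1353 CPM against 1079, 1019 and 2155 CPM in members) were among those leaning that way. Dividing cells had more UMIs, with medians of 31090, 29887 and 27968, and C1qb was similar at 2616, 2624 and 2295 CPM.

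Within each library the members were not uniform. Every cell was thinned to 3000 UMIs, which left out 2 members in all, and each gene's variance was divided by its mean, a ratio near 1 for pure counting noise. Its median over 3089 genes was 1.06, 1.07 and 0.967. For a gene that varies beyond counting noise the ratio grows with the mean, and no trend with the mean was removed. Abundant genes can therefore rank high with a modest relative spread. An example is Tmsb4x, with a mean of 87.5 UMIs and a ratio of 6.39 in replicate 1. The 15 genes ranking highest by this ratio on average over the Epcam+ Icam+ libraries were Lyz2, Fth1, Cxcl2, Ccl4, Apoe, Scgb3a2, Hmox1, Ccl2, Ftl1, Malat1, Spp1, Pf4, Ccl3, Tmsb4x and Thbs1. Chemokines (Cxcl2, Ccl4, Ccl2, Ccl3) and iron and heme genes (Fth1, Ftl1, Hmox1) made up 7 of these. Lyz2, lysozyme, had ratios of 17.4, 19.2 and 6.65, Cxcl2 11.1, 26.3 and 4.16, and Ccl4 14.2, 16.4 and 15.2. Spp1 (osteopontin) was concentrated in few cells: 10.4%, 10.5% and 9.68% had a UMI, and the highest cell had 17, 17 and 12. Scgb3a2 is a secretory gene of the airway epithelium that 4.22%, 4.26% and 6.45% of members carried, with up to 34 UMIs in 1 cell, and 3.47%, 3.83% and 4.37% of epithelial cells had a UMI. The source of Scgb3a2 in the members was not tested.

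**Figure D2:**
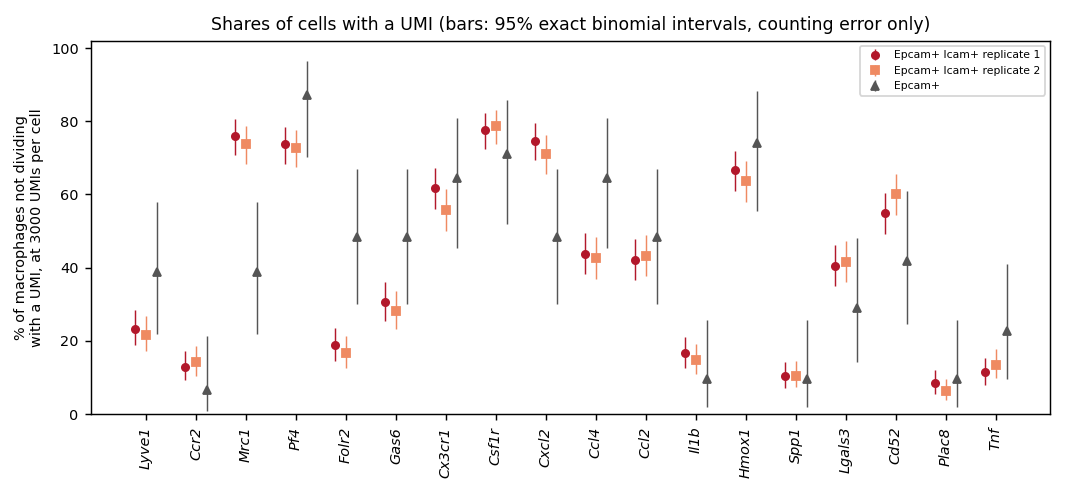
Share of non-dividing macrophages with at least 1 UMI of each of 18 genes after thinning every cell to 3000 UMIs, with exact binomial 95% intervals, 1 symbol per library. Lyve1 was seen in 23.4%, 21.6% and 38.7% of thinned members and Ccr2 in 13%, 14.1% and 6.45%.

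Lyve1, a hyaluronan receptor of resident macrophages (chr7:110850607-110863239, minus strand), and Ccr2 (chr9:124101950-124113557, plus strand) divided the members. After thinning, 72 of 308 members of replicate 1 had a Lyve1 UMI (23.4%, 18.8 to 28.5), 66 of 305 of replicate 2 (21.6%, 17.1 to 26.7) and 12 of 31 of the Epcam+ library (38.7%, 21.9 to 57.8). Ccr2 was seen in 40 (13%, 9.44 to 17.3), 43 (14.1%, 10.4 to 18.5) and 2 (6.45%, 0.791 to 21.4). In epithelium either gene was seen in at most 0.170% of cells. None of the 150 cells with a Lyve1 UMI had a Ccr2 UMI, which allows a share of up to 2.00% at this depth, whereas 16.9%, 18.0% and 10.5% of the cells without Lyve1 had one. At 5000 UMIs per cell a single cell, in replicate 1, carried both. The 196, 196 and 17 cells with neither cannot be placed, since a gene at these levels is often missed at 3000 UMIs.

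The 2 genes stood for wider groups. Cells were scored by their summed UMIs over the resident macrophage list and over the monocyte-derived macrophage list, both of which were chosen with earlier results of these data known. The resident sum had a median of 19, 18 and 26 UMIs and ranged from 5 to 42.3, 4 to 42 and 11 to 39 between the 10th and 90th percentiles. The monocyte-derived sum had a median of 4, 4 and 3 UMIs. Across cells the sums were opposed, with Pearson r of -0.53 (n = 308), -0.60 (n = 305) and -0.60 (n = 31), given as a description because the cells share a library and a fixed total.

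**Figure D3:**
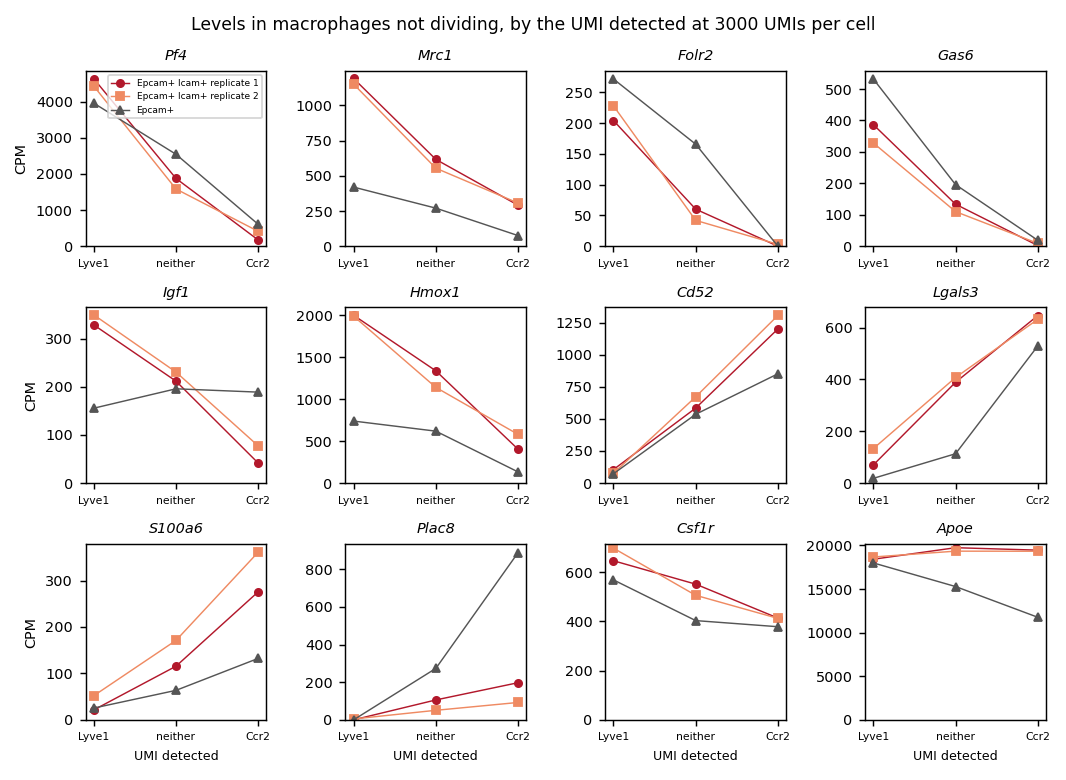
Levels in CPM (full depth) of 12 genes in members with a Lyve1 UMI, with neither UMI and with a Ccr2 UMI, classed after thinning, 1 line per library. Pf4, Mrc1, Folr2 and Gas6 step down and Cd52, Lgals3 and Plac8 step up from the Lyve1 to the Ccr2 class, while Apoe stays nearly level in the Epcam+ Icam+ libraries. The Ccr2 class of the Epcam+ library holds 2 cells.

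At full depth, Pf4 stood at 4632, 1875 and 172 CPM in the Lyve1, neither and Ccr2 classes of replicate 1, and at 4429, 1583 and 412 CPM in those of replicate 2. Mrc1 stood at 1191, 617 and 291 CPM and at 1151, 554 and 306 CPM. Cells with neither UMI lay between the other classes for both genes. Cd52, a surface glycoprotein of monocytes and lymphocytes, ran the other way at 105, 584 and 1200 CPM and at 76.2, 671 and 1306 CPM, and so did the galectin Lgals3 at 69.7, 389 and 646 CPM and at 133, 407 and 632 CPM. Apoe was level at 18415, 19738 and 19456 CPM in replicate 1. C1qb was nearly so at 3312, 3031 and 2829 CPM, and Csf1r stood at 646, 551 and 413 CPM. Median depth was 19741, 20920 and 23639 UMIs in these classes of replicate 1, and Sftpc, as a sign of epithelial RNA, stood at 236, 201 and 70.9 CPM there. In replicate 2 Sftpc stood at 159, 112 and 150 CPM, so its fall to the Ccr2 class was not seen in both.

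Members with and without a Lyve1 UMI were compared on the thinned counts, summed per library, with edgeR's quasi-likelihood test and the library as a block (3 libraries, 2 residual degrees of freedom). At a Benjamini-Hochberg adjusted p under 0.05, 234 of 3309 genes (7.07%) differed, 105 higher (3.17%) and 129 lower (3.90%) in cells with Lyve1. Of the resident macrophage list 11 of 12 tested genes were higher and none lower, with a median log2 difference of 0.94. Of the monocyte-derived list 8 of 9 were lower and none higher, with a median of -2.25. Both shares stood far above those of all genes. They are a description, because the lists were chosen with earlier results of these data known. No S phase gene of 9 tested and no G2 or mitosis gene of 11 passed edgeR's test, and 0 of 9 and 1 of 11 had an unadjusted p under 0.05. DESeq2 called 72 genes (26 higher and 46 lower). The count fell to 40 without replicate 1 and to 85 without replicate 2, and was 363 without the Epcam+ library.

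The Lyve1 side was led by Fcna, a ficolin that recognises sugars on microbes and dying cells, with 194, 177 and 27.8 CPM in cells with Lyve1 against 26.8, 22.3 and 0 CPM without, higher by 2.82 on the log2 scale (SE 0.27, edgeR adjusted p = 8.98e-06). Colec12, a scavenger lectin, gave 153, 197 and 222 CPM against 29.7, 27.9 and 52.6 CPM (2.46, SE 0.26, edgeR adjusted p = 2.41e-05). Folr2, the folate receptor of resident macrophages, gave 199, 283 and 306 CPM against 45.2, 37.7 and 193 CPM (2.21, SE 0.28, edgeR adjusted p = 0.000155). All 3 were higher in 3 of 3 libraries, but the Epcam+ library had only 12 cells with and 19 without Lyve1. The Fcna difference there rested on very few UMIs. The others named by rank were Egfl7 at 2.70, the growth factor Bmp2 at 2.31, Smim1 at 2.05, the membrane protein Pmp22 at 1.90, the endothelin receptor Ednrb at 1.86, the inhibitory receptor Cd200r1 at 1.78 and leukotriene C4 synthase (Ltc4s) at 1.75. Pf4 was higher by 1.38 (SE 0.12, edgeR adjusted p = 3.5e-06), Mrc1 by 1.01, F13a1 by 1.02, Slc40a1 by 1.24 and Hmox1 by 0.86. Gas6, the bridging ligand of Mertk and Axl, was higher by 1.16 (edgeR adjusted p = 0.0071) in 2 of 3 libraries, and in the Epcam+ library it stood at 278 CPM with against 404 CPM without Lyve1.

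On the other side, Plac8 had 0 UMIs in cells with Lyve1 and 169 without, and Ccr2 0 and 113. Set against a floor of 3 UMIs over all cells with Lyve1, these are at least 17.1-fold and at least 11.4-fold lower. Thbs1, the matricellular protein thrombospondin 1, gave 37.0, 35.4 and 0 CPM against 671, 700.1 and 70.2 CPM (log2 difference -4.32, SE 0.23, edgeR adjusted p = 2.1e-08). Epithelium carried Thbs1 at 544, 520 and 178 CPM, a level similar to the members as a whole in the Epcam+ Icam+ libraries. In the Epcam+ library both classes of members lay below epithelium. Cd52 gave 120, 80.8 and 27.8 CPM against 667, 775 and 667 CPM (-2.99, SE 0.21, edgeR adjusted p = 5.23e-07). Thbs1 and Cd52 were lower in 3 of 3 libraries, but the Thbs1 difference in the Epcam+ library rested on very few UMIs. The survival gene Bcl2a1a had 2 UMIs with and 190 without Lyve1, a 28.8-fold lower rate (exact counting interval 7.88 to 240), and the cystine transporter Slc7a11 3 and 174, 17.6-fold lower (5.93 to 86.2). The remaining names were Bcl2a1d at -3.30, a near-copy of Bcl2a1a with which its reads may be divided, H2-DMa at -3.08, the calcium-binding protein S100a6 at -2.78 and Olfml3 at -2.62. The transcription factor Maf was higher by 0.83 in cells with Lyve1. Apoe did not pass at -0.04 (edgeR adjusted p = 0.888). The fitted log2 values of C1qa (0.22), C1qb (-0.04), C1qc (0.12) and Epcam (0.41) are a description, because these genes chose the members.

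Members with and without a Ccr2 UMI were compared in the same way in the 2 Epcam+ Icam+ libraries, the third having 2 such cells (1 residual degree of freedom). Of 4915 genes 125 differed (2.54%), 56 higher (1.14%) and 69 lower (1.40%). The member with mast cell genes lay in the Ccr2 class of replicate 1, where Cpa3, Cma1 and Hdc had 14, 15 and 11 UMIs against 0 in the rest. Without this cell, an alternative chosen after seeing the data, 96 genes differed, 42 higher and 54 lower, and Naaa, Napsa, Rrad and Nrp2 no longer passed (edgeR adjusted p = 0.0801, 0.0668, 0.0682 and 0.0606). The monocyte-derived list was higher in 8 of 12 (median 1.21) and the resident list lower in 12 of 14 (median -1.24), with no gene the other way in either. These counts too come from lists chosen with earlier results of these data known. Chemokines were lower in 7 of 13 with none higher. Cxcl2 was lower by 0.96 on the log2 scale (edgeR adjusted p = 5.42e-05), Ccl4 by 1.30, Ccl2 by 1.15, Ccl3 by 0.80, Ccl12 by 2.28 and Ccl24 by 1.64. Ccl2, the ligand of Ccr2, was thus lower in the cells in which the receptor was seen.

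The Ccr2 side was led by Ms4a4c, a monocyte membrane protein, at 117 and 116 CPM against 28.6 and 24.2 CPM (log2 difference 2.14, SE 0.35, edgeR adjusted p = 0.00614). Cytip, a cytohesin regulator of leukocyte adhesion, gave 275 and 364 CPM against 98.3 and 82.7 CPM (1.84, SE 0.24, edgeR adjusted p = 0.00127). The others were Naaa at 1.94, Mrpl55 at 1.90, the aspartic protease Napsa at 1.79, the lectin receptor Clec4e at 1.71, Emb at 1.64, S100a6 at 1.62, Apoc2 at 1.62 and Plac8 at 1.61. Naaa and Mrpl55 rested on 14 and 21 UMIs in the Ccr2 class and did not pass with cells thinned to 5000 UMIs. Cd52 was higher by 1.46 (SE 0.12, edgeR adjusted p = 5.19e-05) and Lgals3 by 1.03.

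Lyve1, Gas6, Folr2, Bmp2, Gdf15 and Fcna had 0 UMIs in the Ccr2 class and 380, 289, 158, 148, 116 and 112 in the rest. Against a floor of 3 UMIs over the class they were at least 19.8-fold, 15.1-fold, 8.25-fold, 7.73-fold, 6.06-fold and 5.85-fold lower. Pf4 gave 117 and 380 CPM against 2787 and 2426 CPM (-3.35, SE 0.22, edgeR adjusted p = 1.26e-05), Slc40a1 was lower by 3.47 on the log2 scale, Cd36 by 2.91, Igf1 by 2.46, Hmox1 by 1.55 and Mrc1 by 1.25. Nfkbiz had 3 UMIs in the Ccr2 class and 276 in the rest, a 14.4-fold lower rate (exact counting interval 4.88 to 70.3). Nrp2, Rrad and Pmp22 had 1 UMI each against 97, 96 and 94, or 15.2-fold (2.66 to 606), 15-fold (2.63 to 599.9) and 14.7-fold (2.58 to 588) lower. Rrad had a fitted log2 value of -0.11 (edgeR adjusted p = 0.904) with cells thinned to 5000 UMIs. Apoe (0.08, edgeR adjusted p = 0.376) and Csf1r (-0.39, 0.235) did not pass. The fitted log2 values of C1qa, C1qb and C1qc were -0.43, -0.13 and -0.40, again a description of genes that chose the members. Of 3236 genes tested in both comparisons, 43 were both higher with Lyve1 and lower with Ccr2, which is 41.7% of the 103 former and 63.2% of the 68 latter, and the comparisons share cells.

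The sort comparison set the 2 Epcam+ Icam+ libraries against the Epcam+ library within the members, summed per library and tested with edgeR (1 residual degree of freedom). The Epcam+ arm is 1 library of 31 members, so the spread comes from the Epcam+ Icam+ replicates alone and the lone library is assumed to vary like them. Icam1 binds the leukocyte integrins, and the labels give no aim beyond the sort itself. The libraries also differ in Cell Ranger version and gene table per their headers, in the set of deposited barcodes and in depth, so sort and processing cannot be told apart. Of 11087 genes 3332 differed (30.1%), 1905 higher (17.2%) and 1427 lower (12.9%) after the Icam1 sort. DESeq2 called 1223. With no filter on low counts edgeR called 0 of 16275, with an unadjusted p under 0.05 for 2064 higher and 1274 lower genes. Icam1 itself stood at 76.6, 80.1 and 110 CPM in the members, with -0.33 as the log2 value of the sort difference (SE 0.17, edgeR adjusted p = 0.154), and at 200.1, 195 and 163 CPM in epithelium. Icam1 RNA was therefore not shown to be higher in the macrophages that the Icam1 gate retained. The counts hold no measure of the protein that the antibody binds.

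**Figure D4:**
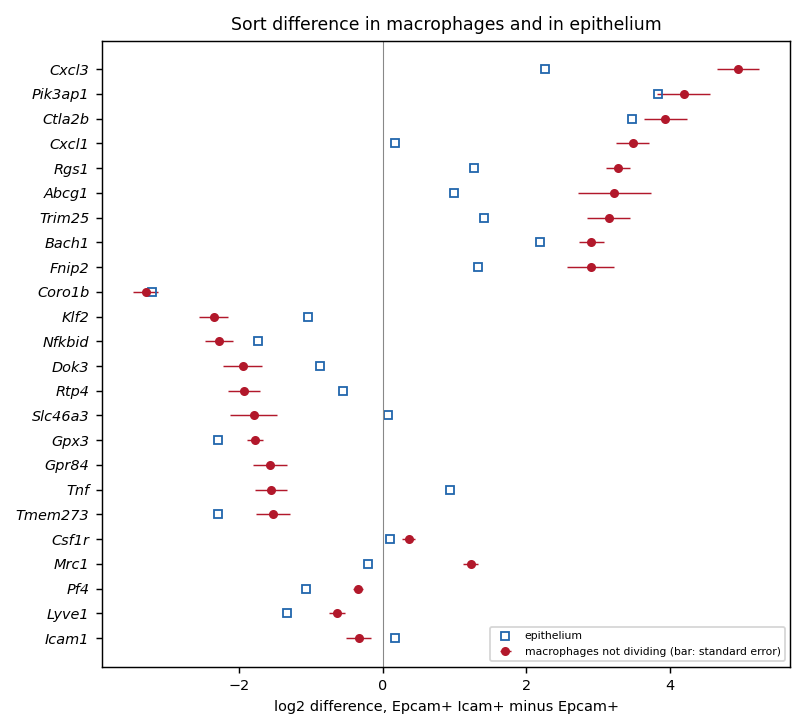
Log2 difference, Epcam+ Icam+ minus Epcam+, of 24 genes in the non-dividing macrophages (points, with standard errors) and in the epithelium (squares). Cxcl1 and Mrc1 differ between the classes, while Pik3ap1 and Coro1b lie at nearly the same value in both.

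Genes were named here among called ones whose level in members was at least 2-fold that in epithelium in every library. The largest excess after the Icam1 sort was that of the chemokine Cxcl3 at 199, 202 and 7.23 CPM (4.94, SE 0.30, edgeR adjusted p = 2.06e-10), with 5 UMIs in the Epcam+ library. It was followed by the signalling adaptor Pik3ap1 at 4.19, the chemokine Cxcl1 at 3.48 and Rgs1, a regulator of chemokine receptor signalling, at 3.27 (SE 0.17). The sterol exporter Abcg1 stood at 3.23, Trim25 at 3.15, the heme-sensing repressor Bach1 at 2.90 and Fnip2 at 2.89. Ctla2b, at 3.93, overlaps a gene listed in only 1 of the gene tables and is uncertain. The largest deficits were Coro1b at -3.30, Klf2 at -2.35, Nfkbid at -2.28, Dok3 at -1.95, Slc46a3 at -1.80, Gpx3 at -1.78, Gpr84 at -1.57, Tnf at -1.56 and Tmem273 at -1.53, with Rtp4 at -1.93 uncertain for the same reason as Ctla2b. Chemokines and cytokines therefore appear on both sides, with Cxcl1, Cxcl3 and Il1b (2.57) higher and Tnf lower after the Icam1 sort.

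Since epithelial cells passed through the same libraries, the sort difference of the members was tested against that of the epithelium, with library as a block. Of 14718 genes 1384 (9.40%) differed, 1166 higher (7.92%) and 218 lower (1.48%) in members relative to epithelium. With RLE scaling, which moved the median of all genes by -0.16 on the log2 scale, 587 were higher and 275 lower, so the share of higher calls went from 84.2% to 68.1%. Cxcl1 differed by 3.42 (SE 0.32, edgeR adjusted p = 1.73e-09), from 3.48 and 0.17, and Il1b by 3.41 (edgeR adjusted p = 4.16e-07). Mrc1, at 1.22 in members and -0.20 in epithelium, differed by 1.54 (edgeR adjusted p = 0.000368). For Pik3ap1 (4.19 and 3.83), Coro1b (-3.30 and -3.22) and Cxcl2 (2.49 and 1.94) the difference did not pass (edgeR adjusted p = 0.88, 0.98 and 0.248). Several of the largest values in macrophages were thus met by a value of the same sign in epithelium, and others were not.

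By list, and against 17.2% higher and 12.9% lower over all genes tested, cytokines and growth factors were higher in 12 of 21 genes tested and lower in 1, and the monocyte-derived list in 9 of 17 with 2 lower. The resident list was divided, with 7 of 16 higher and 6 lower. Set against the sort difference of epithelium, the monocyte-derived list was higher in 3 of 17 and lower in 1. Its median there was 0.26, below the 0.39 over all genes. The cytokine list was higher in 7 of 22 and lower in 1 (median 1.03). The resident list was higher in 8 of 16 and lower in 2 (median 1.04). G2 and mitosis genes had a median log2 difference of -1.23 and S phase genes of -1.01, against 0.13 over all genes. Relative to the sort difference of epithelium these medians were -0.77 and 0.02, against 0.39 over all genes. The rule cut the members on Mki67 and Top2a, and 19 of 31 Epcam+ members held 1 or 2 such UMIs. In replicates 1 and 2 these were 120 of 309 and 126 of 306. Their part in the cell cycle medians was not tested. Csf1r passed at 0.36 (edgeR adjusted p = 0.00474), Pf4 at -0.35 (0.000735) and Lyve1 at -0.64 (0.000248). C1qa at 0.09 and C1qb at 0.06 are given with no test, since the rule used them in every library. Erythroid and epithelial transcripts moved with this comparison, as given above, and their part in it was not tested. Without the filter on low counts every gene named here as called lost its call (smallest edgeR adjusted p = 0.176).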

How the data were processed

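The authors deposited, per the labels, 1 sparse matrix of raw UMI counts per library, with barcode and gene files. The submitters' processing notes name Cell Ranger 2.1.1 and mm10, whereas the file headers give Cell Ranger 5.0.1 for both Epcam+ Icam+ libraries and 3.0.2 for the Epcam+ library. Genes were joined by Ensembl identifier (30406 shared). The files held 4739, 4531 and 3697 barcodes.

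Members and gene lists were chosen with earlier results of these data known. Macrophages against epithelium, and non-dividing against dividing cells, were selected by the same genes, so those contrasts carry no test. Summed counts were tested with edgeR 4.0.16 in R 4.3.3 (quasi-likelihood, TMM scaling, filterByExpr, Benjamini-Hochberg threshold 0.05), with DESeq2 1.42.0 as an alternative. The biological coefficient of variation was 3.90% for the sort difference, 3.19% for its difference from epithelium, 7.41% for the Lyve1 comparison and 4.32% for the Ccr2 comparison. For the Lyve1 and Ccr2 comparisons cells were thinned to 3000 UMIs, and a library needed at least 10 cells in each class. Genes were named by a fixed rule, the 10 largest differences in each direction among called genes that averaged 20 CPM or more and kept 1 direction over the libraries, leaving out ribosomal, mitochondrial and globin genes and gene models. For the sort difference they also had to stand at least 2-fold above epithelium in every library, and Csf1r, Mrc1, Pf4, Lyve1 and Icam1 were added. Besides these, members of the lists are given as examples. A gene that the rule names for the sort difference is not reported here. The tests were run on simulated data with known changes. At a 2-fold change the Lyve1 test recovered 65.9% of changed genes and the Ccr2 test 26.3%. At 4-fold these were 99% and 78.4%. All simulated libraries varied alike, so the simulation cannot show whether the lone Epcam+ library varies like the replicates.

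Scrublet, run in scanpy 1.11.5, marked 0 barcodes at its own threshold in each library and so did not work as a caller. With a fixed rate of 0.8% per 1000 barcodes it left out 92, 80 and 72 barcodes, of which 1 was a member. Free RNA was not removed. Promoter sequences are from RefSeq and gene positions from GENCODE vM21 on mm10. Alternatives tried were RLE scaling, no filter on low counts, DESeq2, other thresholds for C1q, Epcam, mitochondrial share and proliferation genes, other depths of thinning, leaving out each library and, chosen after seeing the data, leaving out the member with mast cell genes.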

Additional observations from a re-analysis of the deposited data

Results flagged for a closer look

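The sort difference (Epcam+ Icam+ minus Epcam+) was compared between the non-dividing macrophages and the epithelium of the same libraries. By edgeR's quasi-likelihood test of the difference itself, 12 genes differed among the 24 named by rule or added for the sort difference. Most of the 24 were chosen because their sort difference in macrophages was called. Over all genes, 1384 of 14718 (9.40%) differed. Il1b, given above as an example, is not among the 24. The Epcam+ arm is 1 library, assumed to vary like the Epcam+ Icam+ replicates. Macrophages exceeded epithelium by a log2 value of 3.42 for Cxcl1, 2.34 for Abcg1, 2.12 for Rgs1, 1.86 for Trim25, 1.68 for Fnip2, 1.54 for Mrc1, 0.83 for Bach1, 0.83 for Pf4 and 0.63 for Gpx3. They lay below epithelium by -2.40 for Tnf, -1.77 for Slc46a3 and -1.20 for Klf2. The median of this difference over all genes was itself 0.39, and RLE scaling moved it by -0.16. The smaller positive values, such as that of Gpx3, thus lay close to the bulk of genes. With an Epcam maximum of 1 UMI, 10 of the 24 values no longer passed. For Gpx3 both differences were negative, -1.78 in macrophages and -2.30 in epithelium, and for Pf4 likewise, -0.35 and -1.06. In epithelium Pf4 stood at 1.70, 2.12 and 3.68 CPM, Mrc1 at 0.588, 0.381 and 0.520 CPM and Tnf at 0.871, 0.0477 and 0.227 CPM. All of these lay below 5 CPM, and the part of free RNA in them was not tested. The 5 macrophage markers, which include the C1q genes that chose the cells, had a median log2 value of 1.43 in this difference. For Pf4, Mrc1 and Tnf the contrast thus rests on low epithelial levels.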

How the results depend on the processing

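No result changed direction. Among the genes named above, 161 of 192 alternative values of the sort difference that have a test stayed on their side of the threshold and 31 no longer passed. For its difference from epithelium these were 149 and 35 of 186, for the Lyve1 comparison 203 and 9 of 212, and for the Ccr2 comparison 131 and 18 of 149. With 1 Epcam+ Icam+ replicate left out, 1 library per sort remains and the sort difference has no test and no call. Of 48 such values 45 lay within 1 standard error of the reported value and 3 beyond it. Without the member that held mast cell genes, an alternative chosen after seeing the data, the Lyve1 comparison called 270 genes and the Ccr2 comparison 96. The count of genes in the sort difference, 3332 as reported, was 1198 with RLE scaling, 0 with no filter on low counts, 1223 with DESeq2, 2211 with an Epcam maximum of 1 UMI and 1449 with no Mki67 or Top2a UMI allowed. Its difference from epithelium, 1384 genes, became 862, 177, 527 and 405 with RLE scaling, DESeq2, the Epcam maximum of 1 and no proliferation UMI. The Lyve1 comparison, 234 genes, gave 72 with DESeq2, 516 thinned to 5000 UMIs, 1710 with no thinning, 357 with the Epcam maximum of 1, and between 40 and 363 with 1 library left out. The Ccr2 comparison, 125 genes, gave 203 with no filter, 42 with DESeq2, 637 thinned to 5000 UMIs, 2694 with no thinning and 240 with the Epcam maximum of 1. More UMIs per cell admit more genes to the test and more cells to the positive class, and the other causes were not tested.

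No paired analysis was possible for the sort difference because the Epcam+ library carries no number that matches a replicate. Without the library block the Lyve1 comparison called 29 genes and the Ccr2 comparison 148. The Ccr2 comparison could not be fitted with 1 library left out or with 2 UMIs asked of a positive cell.

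The members numbered 538 with the Epcam maximum of 1, 381 with no proliferation UMI and 589 with a mitochondrial maximum of 5%. The share with a Ccr2 UMI was 20.7% in both Epcam+ Icam+ libraries at 5000 UMIs, since more UMIs per cell show more positive cells. The 31 cells of the single Epcam+ library limit every statement on the sort.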

Other observations

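Interferon-response genes were higher in the members than in epithelium in 10 of 14, a contrast given without a test. Isg15, a ubiquitin-like protein, stood at 35.7, 28.3 and 73.8 CPM in replicate 1, replicate 2 and the Epcam+ library against at most 0.310 CPM in epithelium, while Ifit3 stood at 2.82, 0.917 and 7.23 CPM. Ifitm3, a membrane protein that blocks viral entry, was far more abundant at 346, 370 and 487 CPM. It was lower by 2.43 on the log2 scale in cells with a Lyve1 UMI and higher by 1.36 in cells with a Ccr2 UMI.

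A list of 10 adhesion genes held Icam1 itself, its leukocyte integrin partners and other adhesion molecules. Of 8 measured, 4 were higher than in epithelium, against 11.3% of all measured genes. The integrin chains Itgam (41.2, 41.1 and 13 CPM), Itgb2 (25.4, 25.8 and 21.7 CPM) and Itgal (21.1, 19.7 and 4.34 CPM) were present, and Itgax stood at 0.470, 0.306 and 0 CPM. Itgam overlaps a gene listed in only 1 of the gene tables and is uncertain across the sorts.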
